A study of Mus musculus with 8 samples.

Results

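The secreted proteins of the complement and coagulation systems, together with the main plasma carriers made by the liver, were followed in livers of Tm6sf2 E167K knock-in and wild type mice. The 49 genes were taken from a list of named members, each measured by the probe set that carries only its symbol and, for that gene, the highest mean. Of these, 46 were measured, out of 22180 genes with such a probe set, and all 46 passed the filter on dim genes, as did 13449 genes in all, which were tested. C3 is not analysed here, and Masp2 and Klkb1 were left out because their probe sets are listed with a neighbouring gene as well (Tardbp and Cyp4v3).

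The data are log2 expression values from 8 whole-transcript arrays of liver RNA, 4 from wild type (WT) mice and 4 from mice with the TM6SF2 E167K knock-in (KI), a coding change in a membrane protein of the endoplasmic reticulum. All mice were male C57BL/6J, and the wild type mice were littermates; no age is stated in the labels used. The labels disagree on diet, with a high-fat diet for 20 weeks in the text on the series and either a fat-free, sucrose-rich diet or chow for 14 weeks in the notes on each array, so no result is tied to a diet. Nothing states outright that each array holds a separate mouse, so each p-value reflects only how far these arrays vary, which may be technical. Because the change is in the coding sequence, the Tm6sf2 level (9.72 in wild type and 9.66 in knock-in, exact two-sided permutation p = 0.686) does not check the labels. Array medians lay between 3.73 and 3.80 on the log2 scale, and hepatocyte markers averaged 12.15 to 12.22 over the wild type arrays and 12.22 to 12.29 over the others.

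Hepatocytes make most circulating complement and clotting proteins. Complement is started by the C1 complex, by mannose-binding lectins or by the alternative pathway, all of which lead to cleavage of C3 and then to the membrane attack complex built from C5b, C6, C7, C8 and C9. Clotting proteases activate each other until thrombin turns fibrinogen into fibrin, while serpins and protein C restrain them and plasmin dissolves the clot. C1q differs from most of the others in that Kupffer cells and other macrophages are its main source.

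None of the 46 genes passed the limma test at an adjusted p under 0.05, against 0.0669% of all tested genes. Knock-in minus wild type differences ran from -0.33 for C6 to 0.36 for Apcs, and 42 of the 46 were smaller than 0.25 in either direction. In total 32 were higher and 14 lower in the knock-in, with a median of 0.022 (0.0059 without knock-in replicate 4 and 0.058 without replicate 1), while 51.1% of all tested genes were higher and their median was 0.0046. The count of higher genes was 25 without wild type replicate 3 or without knock-in replicate 4. An unadjusted limma p under 0.05 was reached by 2 genes, Apcs and Serpind1, both higher. That is 4.35% of the 46, against 11.3% of all tested genes (6.01% higher and 5.29% lower). With single arrays left out this count ran from 0 to 5. It was 0 when replicate 3 or 4 of the wild type or replicate 2 of the knock-in was dropped, and 1 when replicate 2 of the wild type or replicate 3 of the knock-in was dropped. Dropping replicate 4 of the knock-in gave 4, dropping its replicate 1 gave 5, and a trended and robust prior gave 5. The groups did not overlap in 2 genes, Serpind1 and C8g, both higher and again 4.35%, against 7.16% of all tested genes (3.96% higher and 3.2% lower). In bulk liver RNA, fewer cells of a type and less RNA per cell cannot be told apart.

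**Figure D1:**
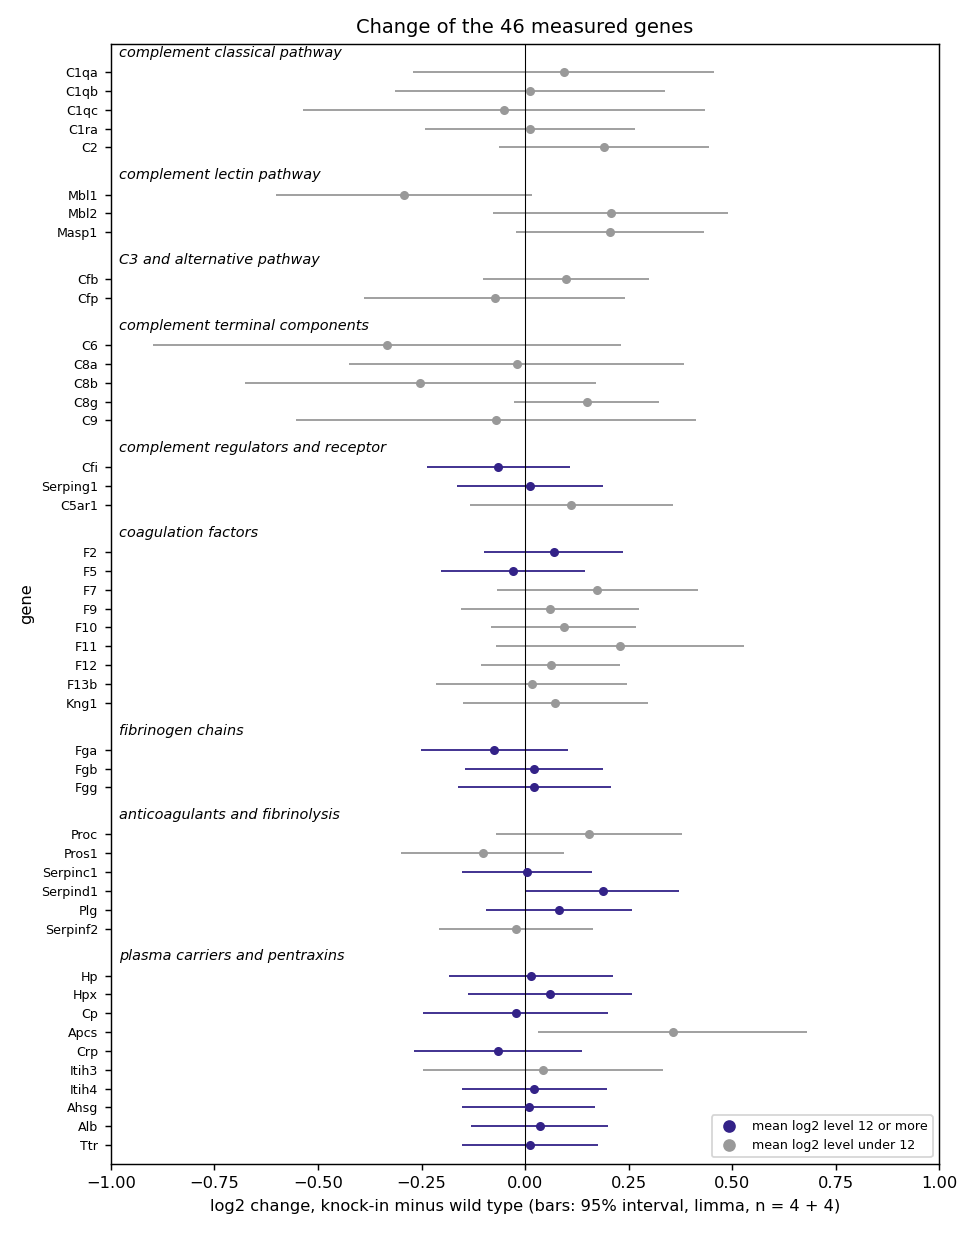
Log2 change (knock-in minus wild type, horizontal axis) of each of the 46 measured genes, grouped by role; bars are 95% intervals from the limma fit (4 arrays a group). Dark points are the 18 genes with a mean log2 level of 12 or more, and only the intervals of Serpind1 and Apcs leave out 0.

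The classical pathway genes among the 46 members showed small differences. Outside the members, C4a, described below, was at 1.87 (SE 0.42), C4b at 0.18 (SE 0.085) and C1s1 at -0.31 (SE 0.20). C2, the protease that joins C4 in the C3 convertase, read 8.78, 8.56, 8.67 and 8.78 in wild type and 8.62, 8.91, 8.97 and 9.05 in knock-in arrays (replicates 1 to 4 in each). Of the knock-in arrays, 3 lay above every wild type array and replicate 1 lay among them, with a difference of 0.19 (SE 0.11, limma adjusted p = 0.572). C1ra, a protease of the C1 complex, was at 0.012 (SE 0.11).

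The C1q chains, which recognise bound antibody, varied more between arrays than between groups. C1qa read 8.0, 8.44, 8.35 and 8.78 in wild type and 8.41, 8.37, 8.45 and 8.71 in knock-in arrays. C1qb read 9.45, 9.66, 9.45 and 9.88 against 9.28, 9.69, 9.69 and 9.82. C1qc read 7.36, 7.41, 7.52 and 7.98 against 6.90, 7.70, 7.77 and 7.70. In each of the 3 genes wild type replicate 4 was the highest wild type array, and for C1qb and C1qc knock-in replicate 1 was the lowest of all 8. The differences were 0.093 for C1qa, 0.011 for C1qb and -0.050 for C1qc (SE 0.16, 0.14 and 0.21), and none was larger than the spread within a group.

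The mean of 10 Kupffer cell markers had its extremes in the same arrays as C1qb and C1qc. It was 8.27, 8.32, 8.56 and 9.0 in wild type and 8.24, 8.62, 8.67 and 8.80 in knock-in arrays, so the ranges overlapped. All 10 markers were tested, 6 higher and 4 lower in the knock-in, with 0 past the adjusted threshold. Cd163 and Slc40a1, both higher, had an unadjusted limma p under 0.05, which is 20% against 11.3% of all tested genes. The groups did not overlap for Slc40a1 alone, which is 10% against 7.16% of all tested genes. The part of Kupffer cell content in the C1q values was not tested. Cfp, or properdin, which steadies the alternative convertase and is made largely by myeloid cells, read 8.29, 7.95, 8.37 and 8.51 in wild type and 7.97, 8.31, 8.19 and 8.37 in knock-in arrays. The groups overlapped throughout, with a difference of -0.074 (SE 0.14). C5ar1, the receptor for C5a on myeloid cells, lay near the dim limit, at 3.59, 3.74, 3.74 and 3.61 in wild type and 3.65, 3.71, 3.71 and 4.06 in knock-in arrays. Only knock-in replicate 4 lay above the wild type range, and the difference was 0.11 (SE 0.11), or 0.020 without that array.

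**Figure D2:**
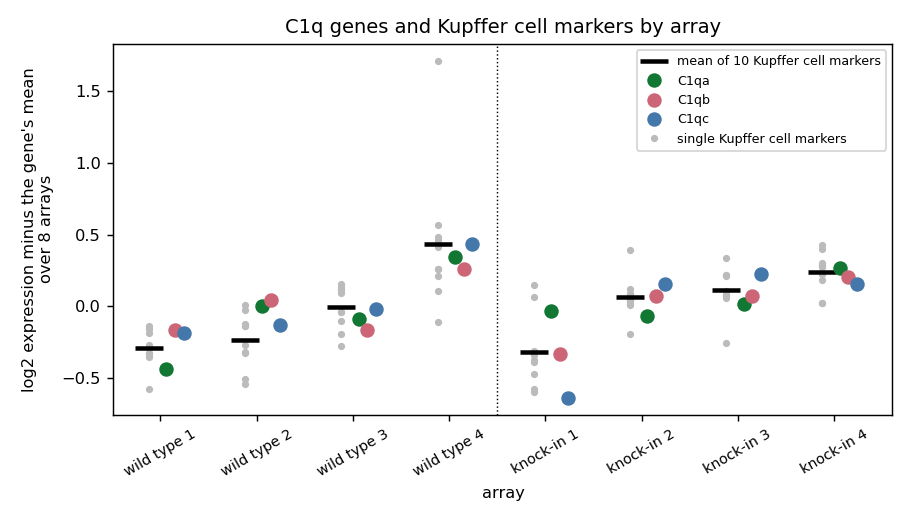
Log2 expression of C1qa, C1qb and C1qc (coloured points) and of 10 Kupffer cell markers (grey points, black bars for their mean) on each array, as the difference from each gene's mean over the 8 arrays. Wild type 4 is high and knock-in 1 low for C1qb, C1qc and the marker mean, and neither the C1q genes nor the marker mean separates the genotypes.

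In the lectin pathway the mannose-binding lectins lay in opposite directions. Mbl1 read 10.24, 10.36, 10.23 and 10.18 in wild type and 9.66, 9.96, 9.89 and 10.33 in knock-in arrays. Knock-in replicates 1, 2 and 3 lay below every wild type array and replicate 4 among them. The difference was -0.29 (SE 0.14, 95% interval -0.60 to 0.016, limma adjusted p = 0.459). Without knock-in replicate 4 it was -0.42 (SE 0.10), with an unadjusted limma p of 0.00417 and an adjusted p of 0.221, and without replicate 1 it was -0.19 (SE 0.13).

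Mbl2, the other mannose-binding lectin, read 10.55, 10.75, 10.43 and 10.45 in wild type and 10.44, 10.91, 10.86 and 10.80 in knock-in arrays. Knock-in replicates 2, 3 and 4 were above every wild type array, and replicate 1 was not, for a difference of 0.21 (SE 0.13). Masp1, a protease that binds these lectins, read 10.21, 10.27, 10.05 and 10.16 against 10.27, 10.32, 10.32 and 10.61, and its difference was 0.21 (SE 0.10, limma adjusted p = 0.482). Its highest wild type array lay just above its lowest knock-in array, and without knock-in replicate 4 the difference was 0.13. Cfb, the protease of the alternative convertase, read 11.32, 11.40, 11.28 and 11.36 against 11.30, 11.51, 11.37 and 11.58. Knock-in replicates 2 and 4 lay above the wild type range, and the difference was 0.099 (SE 0.088).

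**Figure D3:**
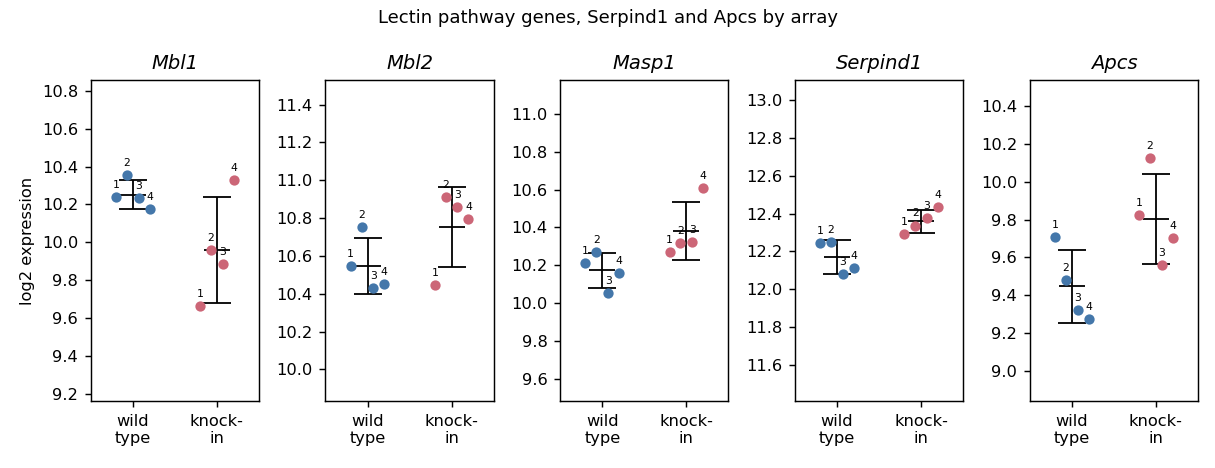
Log2 expression of Mbl1, Mbl2, Masp1, Serpind1 and Apcs on each array, with the replicate number beside each point, bars for the mean ± SD of 4 arrays and an axis of equal span in every panel. Only for Serpind1 do the 4 knock-in arrays lie above all 4 wild type arrays.

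Of the 5 members that belong to the membrane attack complex, 4 were lower in the knock-in and 1 higher. Their median absolute difference was 0.15, against 0.067 for all 46 members and 0.12 for all tested genes. Their median SE was 0.19, against 0.13 for all tested genes. Among the knock-in arrays 4 of the 5 spread widely. C7 and Hc, the gene of C5, are outside the members and were at 0.34 (SE 0.25) and -0.026 (SE 0.083). Both were highest in knock-in replicate 4 and lowest in replicate 2. C6, which binds C5b, read 9.94, 10.29, 10.32 and 10.43 in wild type and 9.40, 9.60, 10.01 and 10.64 in knock-in arrays. C8b, the beta chain of C8, read 11.66, 11.84, 11.80 and 11.93 against 11.16, 11.35, 11.60 and 12.11. C9, the subunit that polymerises into the pore, read 11.30, 11.52, 11.21 and 11.48 against 10.91, 10.99, 11.40 and 11.94. In these genes knock-in replicates 1 and 2 lay below every wild type array and replicate 4 above every one; for C8b replicate 3 was also below them.

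C8a, the alpha chain of C8, read 11.05, 11.32, 11.16 and 11.50 in wild type and 10.85, 11.11, 11.31 and 11.69 in knock-in arrays. Its knock-in arrays came in the order seen for C6, C8b and C9, but only replicate 1 lay below the wild type range. From the lowest to the highest knock-in array the level differed 2.37-fold for C6, 2.04-fold for C9, 1.94-fold for C8b and 1.79-fold for C8a. The SDs of the knock-in group were 0.55 for C6, 0.47 for C9, 0.41 for C8b and 0.35 for C8a, against 0.21, 0.14, 0.11 and 0.19 in wild type. Among the 1422 tested genes with a mean of 9.5 or more, 0.774%, 1.55%, 2.11% and 3.09% had a knock-in SD as large as those of C6, C9, C8b and C8a. These genes were picked for their spread after the values were seen, so these shares describe them and test nothing.

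C8g, the gamma chain, which belongs to another protein family (the lipocalins), stood apart from the others. It read 11.34, 11.34, 11.22 and 11.23 in wild type and 11.35, 11.45, 11.48 and 11.44 in knock-in arrays. The 4 knock-in arrays lay above the wild type arrays, the nearest of them by less than 0.01, and the difference was 0.15 (SE 0.078, limma adjusted p = 0.516). Its SD was 0.056 in the knock-in and 0.069 in wild type.

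The differences between the group means were -0.33 for C6 (SE 0.25), -0.25 for C8b (SE 0.19), -0.070 for C9 (SE 0.21) and -0.020 for C8a (SE 0.18), with limma adjusted p of 0.665 to 0.982. They depended on knock-in replicates 1 and 4. Without replicate 4 C6 was at -0.58 (SE 0.17, limma adjusted p = 0.283), with an unadjusted limma p of 0.0106. C8b was at -0.44 (SE 0.13, limma adjusted p = 0.266), with an unadjusted limma p of 0.00865. The same fit gave -0.28 for C9 and -0.17 for C8a. Without knock-in replicate 1, C6 was at -0.16 (SE 0.24), C8b at -0.12 (SE 0.17), C9 at 0.064 and C8a at 0.11.

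**Figure D4:**
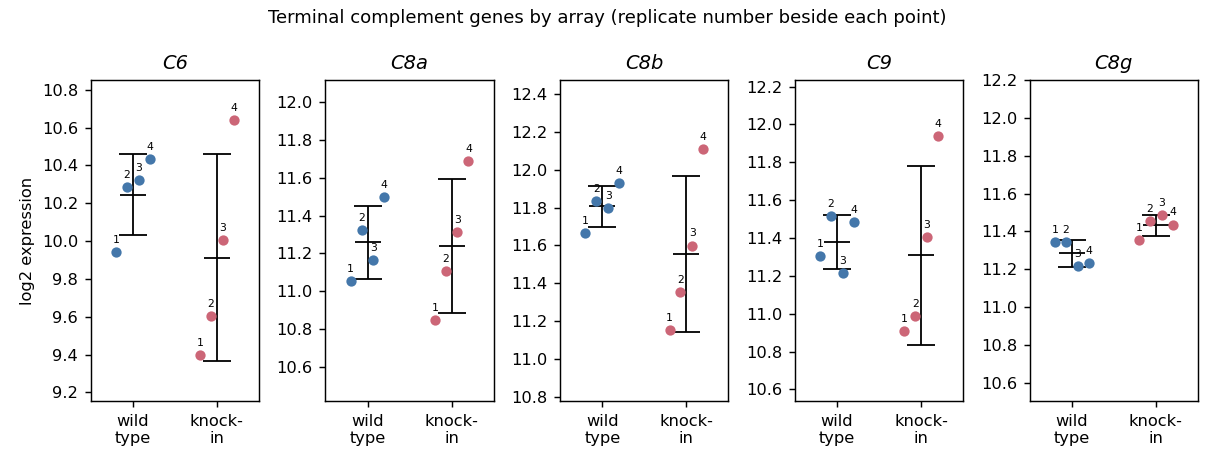
Log2 expression of C6, C8a, C8b, C9 and C8g on each array, with the replicate number beside each point, bars for the mean ± SD of 4 arrays and an axis of equal span in every panel. Among the knock-in arrays C6, C8a, C8b and C9 are lowest in replicate 1 and highest in replicate 4, and C8g is tight in both groups.

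Because C6, C8a, C8b and C9 came in the same order over the knock-in arrays and C8g did not, the 250 bases before a start listed for each gene were searched (RefSeq, GRCm38.p6, 5′ to 3′ on the gene's strand). For C6, C8a and C8g the gene record of the same build begins further upstream, so that 143, 89 and 58 bases of the window lie inside the record; letters are shown only for the bases before it. Capitals mark matches to any of 5 short motifs, on both strands. The letters shown are chr15:4726960-4727066 for C6 and chr15:6445096-6445345 for C9 (both plus strand), and chr4:104766067-104766316 for C8b (plus strand) and chr4:104876488-104876648 for C8a (minus strand). For C8g, which has 2 listed starts, the window of the upstream start was used, and chr2:25501778-25501969 is shown (minus strand).
C6: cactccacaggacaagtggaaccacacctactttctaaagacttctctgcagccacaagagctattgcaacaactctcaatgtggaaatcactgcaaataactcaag
C8a: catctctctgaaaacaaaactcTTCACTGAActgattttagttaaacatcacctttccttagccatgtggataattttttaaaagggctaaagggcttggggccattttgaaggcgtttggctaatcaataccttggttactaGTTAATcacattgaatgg
C8b: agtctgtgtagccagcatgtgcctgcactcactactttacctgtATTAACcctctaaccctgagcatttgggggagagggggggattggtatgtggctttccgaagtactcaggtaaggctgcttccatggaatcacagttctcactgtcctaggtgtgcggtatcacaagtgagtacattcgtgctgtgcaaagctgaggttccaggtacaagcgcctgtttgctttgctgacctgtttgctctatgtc
C9: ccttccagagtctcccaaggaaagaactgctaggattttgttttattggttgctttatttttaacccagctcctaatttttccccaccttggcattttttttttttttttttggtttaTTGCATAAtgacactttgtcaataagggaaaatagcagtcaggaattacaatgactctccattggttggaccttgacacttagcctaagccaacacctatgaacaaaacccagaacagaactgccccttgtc
C8g: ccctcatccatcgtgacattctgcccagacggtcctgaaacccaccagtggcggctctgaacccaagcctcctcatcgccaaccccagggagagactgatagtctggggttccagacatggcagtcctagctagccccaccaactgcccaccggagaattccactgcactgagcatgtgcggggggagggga
The motifs were GTTAAT (the core of the HNF1 site), TTGCNNAA (C/EBP), CAAAGTCCA (HNF4), TTCNNNGAA (STAT) and TATAAA (the TATA box). Of all 32851 windows of this length, 6.43%, 9.56%, 0.384%, 7.02% and 12.4% hold at least 1 match. C8a has an HNF1 core 107 to 102 bases before its listed start and a STAT match at 228 to 220, C8b has an HNF1 core at 206 to 201, and C9 has a C/EBP match at 132 to 125. None of the 5 motifs was in the windows of C6 and C8g, so no motif was common to C6, C8a, C8b and C9.

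Among the members that inhibit complement, both measured genes were bright and close to equal. Further inhibitors, such as Cd55, are outside the members and were counted with the other complement genes. Cfi, the protease that cleaves C3b, read 12.22, 12.23, 12.12 and 12.22 in wild type and 12.14, 12.11, 12.06 and 12.21 in knock-in arrays, a difference of -0.065 (SE 0.076). Serping1, the C1 inhibitor, which also blocks plasma kallikrein, was at 0.012 (SE 0.078), and its sign turned to -0.0017 after a further quantile normalization.

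Of the 9 coagulation factors measured among the members 8 were higher in the knock-in and 1 lower, F5, the cofactor of factor Xa, at -0.028 (SE 0.077). Their differences ran up to 0.23, and none of these 9 had an unadjusted p under 0.05. Outside the members, F8 and F3 were lower, at -0.26 (SE 0.10) and -0.38 (SE 0.15), both with an unadjusted limma p under 0.05. F13a1, with a mean level of 3.99, was higher, at 0.22 (SE 0.16). F11, a protease of the contact pathway, read 9.42, 9.38, 9.14 and 9.27 in wild type and 9.23, 9.43, 9.72 and 9.74 in knock-in arrays. Knock-in replicates 3 and 4 stood above the wild type range, replicate 2 just above its top and replicate 1 inside it, for a difference of 0.23 (SE 0.13, limma adjusted p = 0.562). F7, which starts clotting with tissue factor, read 10.30, 10.35, 9.97 and 10.16 against 10.22, 10.37, 10.39 and 10.49, a difference of 0.17 (SE 0.11), or 0.10 without wild type replicate 3.

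The remaining factors were closer to 0. F10, the protease that makes thrombin, was at 0.094, Kng1, the source of bradykinin, at 0.073, F2, prothrombin, at 0.069, and F12, which starts the contact pathway, at 0.062 (SE 0.074 to 0.099). F9, the factor lacking in haemophilia B, was at 0.060 (SE 0.095), and F13b, the carrier subunit of the fibrin-crosslinking factor, at 0.016 (SE 0.10).

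The 3 fibrinogen chains, which are encoded side by side on chromosome 3 and form 1 protein, did not differ beyond their spread. Fga read 12.15, 12.13, 12.07 and 12.03 in wild type and 12.03, 12.05, 11.91 and 12.09 in knock-in arrays, a difference of -0.074 (SE 0.079, 95% interval -0.25 to 0.10). Fgg read 13.16, 13.12, 12.98 and 13.01 against 13.04, 13.07, 13.07 and 13.18, and Fgb read 13.34, 13.32, 13.26 and 13.24 against 13.26, 13.37, 13.29 and 13.32. The groups overlapped in all 3 chains. The differences of Fgg and Fgb were both 0.022 (SE 0.081 for Fgg and 0.074 for Fgb). All 3 chains lay near the top of the scale, with means of 13.30 for Fgb, 13.08 for Fgg and 12.06 for Fga.

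Among the restraints on clotting, Serpind1, or heparin cofactor II, a serpin that inhibits thrombin, had the smallest p of its group. It read 12.25, 12.25, 12.08 and 12.11 in wild type and 12.29, 12.34, 12.37 and 12.43 in knock-in arrays, so the groups lay apart by a small margin. The difference was 0.19 (SE 0.081, 1.14-fold, limma adjusted p = 0.430), with an unadjusted limma p of 0.0469. With 1 array left out it ran from 0.16 to 0.21, and the unadjusted limma p was above 0.05 in 5 of the 8 such fits. Proc, protein C, the zymogen of a protease that inactivates factors Va and VIIIa, read 10.89, 11.04, 10.93 and 10.90 against 10.90, 11.07, 11.12 and 11.29, a difference of 0.15 (SE 0.099), or 0.090 without knock-in replicate 4. Pros1, its cofactor protein S, was at -0.10 (SE 0.087), or -0.062 without knock-in replicate 2.

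Serpinc1, antithrombin, was the steadiest of the set, at 12.41 to 12.46 on every array and a difference of 0.0039 (SE 0.069). Plg, the precursor of plasmin, was at 0.081 (SE 0.078), and Serpinf2, the plasmin inhibitor, at -0.022 (SE 0.082).

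Among plasma carriers and pentraxins, Apcs had the largest difference of all 46 genes. Apcs encodes serum amyloid P, the main acute phase pentraxin of the mouse, and its relative Crp encodes C-reactive protein. Apcs read 9.71, 9.48, 9.32 and 9.28 in wild type and 9.82, 10.13, 9.56 and 9.70 in knock-in arrays. Knock-in replicates 1 and 2 lay above every wild type array and replicates 3 and 4 below the highest of them only. The difference was 0.36 (SE 0.14, 1.28-fold, 95% interval 0.032 to 0.68, limma adjusted p = 0.383), with an unadjusted limma p of 0.0347. With 1 array left out it ran from 0.25 to 0.44. Crp read 12.32, 12.42, 12.17 and 12.35 against 12.38, 12.17, 12.21 and 12.24, a difference of -0.065 (SE 0.089).

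The other 8 carriers were within 0.07 of equal. Hp, which binds free haemoglobin, was at 0.015 (SE 0.088), Hpx, which binds haem, at 0.060 (SE 0.088), and Cp, the copper carrier ceruloplasmin, at -0.023 (SE 0.099). Itih3 and Itih4, heavy chains of the inter-alpha-trypsin inhibitor family, were at 0.044 (SE 0.13) and 0.023 (SE 0.077), and Itih4 turned to -0.0029 after a further quantile normalization. Itih3 read 11.61 in knock-in replicate 4 and 11.06 to 11.17 in the other knock-in arrays. Ahsg, or fetuin-A, was at 0.0092 (SE 0.071), Ttr, the carrier of thyroid hormone and retinol-binding protein, at 0.012 (SE 0.072), and Alb, albumin, at 0.035 (SE 0.073).

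Many of these genes are among the brightest on the array. The brightest value on an array lay between 13.59 and 13.66, and Alb, at 13.54 to 13.66, had the highest mean of all genes. Of the 46 genes, 20 had a mean above the 99th percentile of all genes, 11.57, 18 had a mean of 12 or more, and 6 of 13 or more (Alb, Ttr, Fgb, Ahsg, Fgg and Hpx). The median absolute difference of all tested genes was 0.15 at levels of 4 to 6, 0.067 at 12 to 13 (119 genes) and 0.032 at 13 or more (30 genes). The median within-group SD went from 0.27 to 0.080 and 0.040 over the same levels. Of genes at 12 to 13, 4.20% reached an unadjusted limma p under 0.05, and none of the 30 at 13 or more.

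The members did not narrow evenly with level. Their median absolute difference was 0.031 at levels of 6 to 8 (2 genes), 0.10 at 8 to 10 (7 genes), 0.19 at 10 to 11 (8 genes), 0.066 at 11 to 12 (10 genes), 0.047 at 12 to 13 (12 genes) and 0.022 at 13 or more (6 genes); C5ar1, the only member under 4, was at 0.11. The medians of all tested genes lay between 0.091 and 0.095 at levels of 8 to 12. Serpind1, at 12.17 and 12.36, was the only member of 12 or more with an unadjusted limma p under 0.05. Of these 18 genes 13 were higher and 5 lower, and compression at the top of the scale and a lack of difference cannot be told apart. Of the 28 members below 12, 19 were higher and 9 lower.

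**Figure D5:**
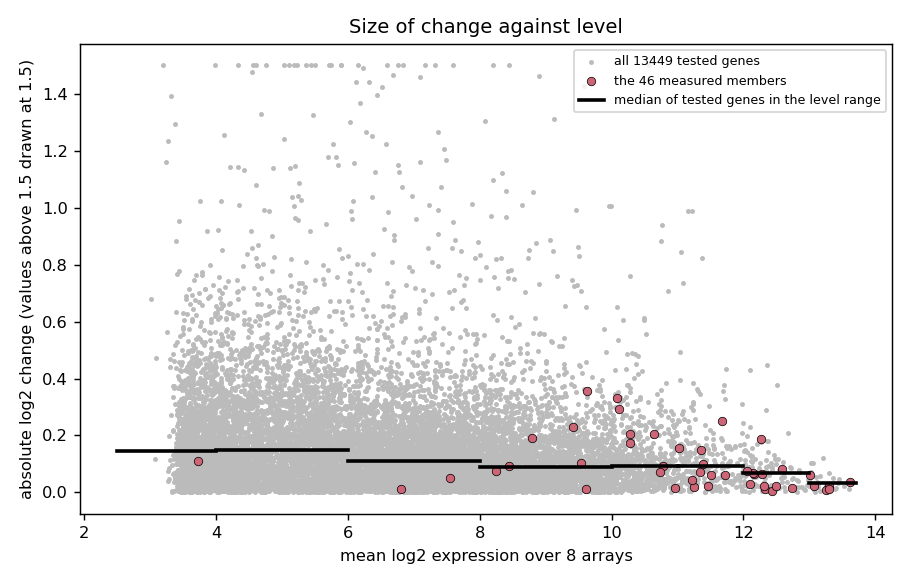
Absolute log2 difference between knock-in and wild type against the mean log2 level over 8 arrays, for all tested genes (grey) and the 46 measured members (red); black lines are the medians of tested genes in each level range. The medians narrow from 0.15 at levels of 4 to 6 to 0.032 at 13 or more, and the 6 brightest members lie at 0.060 or less.

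Within the knock-in group the members shared their extreme arrays. Knock-in replicate 4 was the highest knock-in array for 32 of the 46 members and the lowest for 0. Of all tested genes, it was the highest for 27.0% and the lowest for 26.1%. Knock-in replicate 1 was the lowest for 29 members, against 24.8% of all tested genes. The highest wild type array was replicate 2 for 21 members, against 25.7% of all tested genes. Of the 11 marker lists, only those of stellate and Kupffer cells had the same lowest and highest knock-in arrays in their means. The mean of 10 stellate cell markers was 7.59, 7.73, 8.0 and 8.09 in knock-in replicates 1 to 4, and 7.57 to 7.99 in wild type. That of 10 Kupffer cell markers was 8.24, 8.62, 8.67 and 8.80, and 8.27 to 9.0 in wild type. The mean of hepatocyte markers, 12.22, 12.26, 12.29 and 12.24 in the same arrays, was lowest in replicate 1 and highest in replicate 3. The part of cell makeup in the members' spread was not tested.

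Other genes of the same systems, from lists of pathway members, also held 0 that passed the adjusted threshold. Of 22 other complement genes tested, 14 were higher and 8 lower, with a median of 0.027. C4a, a close copy of C4b that in mice is known as the sex-limited protein, read 4.17, 3.21, 3.91 and 2.32 in wild type and 4.62, 6.05, 5.11 and 5.30 in knock-in arrays. The groups lay apart, with a difference of 1.87 (SE 0.42, limma adjusted p = 0.164). Wild type replicates 2 and 4 were below the dim limit of about 3.5, so the size is uncertain, and transcripts of the copies may hybridise to the same probes. C4b itself was at 0.18 (SE 0.085) and Cd55, which speeds decay of the convertases, at -0.24 (SE 0.15).

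Of 20 other coagulation and fibrinolysis genes tested, 14 were higher and 6 lower, and 4 higher and 2 lower had an unadjusted limma p under 0.05, which is 6 of 20 against 11.3% of all tested genes. Vwf, the platelet-binding carrier of factor VIII, read 5.39, 5.60, 5.48 and 5.16 in wild type and 6.14, 5.98, 5.73 and 6.26 in knock-in arrays, without overlap. Its difference was 0.62 (SE 0.14, limma adjusted p = 0.162). Thbd, thrombomodulin, was at 0.35 (SE 0.11, limma adjusted p = 0.294), and Procr, the endothelial receptor of protein C, at 0.37 (SE 0.12, limma adjusted p = 0.316). Of 10 sinusoidal endothelial markers 5 were higher and 5 lower, with means of 9.04 to 9.16 over the wild type arrays and 9.11 to 9.17 over the knock-in ones. Among these markers only Lyve1 had an unadjusted limma p under 0.05, which is 10% against 11.3% of all tested genes. Lyve1 was higher, at 0.73 (SE 0.23, limma adjusted p = 0.295), and its groups overlapped. F8, factor VIII, at -0.26 (SE 0.10, limma adjusted p = 0.377), and F3, tissue factor, at -0.38 (SE 0.15, limma adjusted p = 0.383), were the 2 lower ones, and are named here after their values were seen. The part of endothelial content in these differences was not tested.

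Of 21 other secreted plasma proteins tested, 11 were higher and 10 lower, with a median of 0.0011. Serpina1a, an antitrypsin gene with close copies, was at -0.35 (SE 0.13, limma adjusted p = 0.340), Itih2 at -0.17 (SE 0.076) and Afm, a vitamin E carrier, at 0.19 (SE 0.097).

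The inducible acute phase proteins lay further from 0 than the members did, with 12 of 15 tested higher and a median of 0.19. Of the 15, 5 had an unadjusted limma p under 0.05, all higher, which is 33.3% against 11.3% of all tested genes. The groups lay apart for 20%, against 7.16% of all tested genes, with Orm2 and Orm3 higher and Hamp lower. Saa3, Orm2 and Saa2 were at 1.07, 1.07 and 1.42 (SE 0.28, 0.30 and 0.49), with limma adjusted p of 0.219 to 0.333. The groups overlapped for Saa3 and Saa2. Mean levels of Saa3, Orm2 and Saa2 were 6.82, 7.41 and 6.52, while 18 of the 46 members lay at 12 or more. Saa2 lay at 4.58 to 8.07 over all arrays. Among 18 liver transcription factors and members of the interleukin 6 pathway, 8 were higher and 10 lower. Foxa1, a pioneer factor of hepatocytes, was at -0.52 (SE 0.17), Il6st, the signalling chain of the receptor, at -0.22 (SE 0.086), and Foxa3 at -0.30 (SE 0.12), with limma adjusted p of 0.321 to 0.387. Only these 3 had an unadjusted limma p under 0.05, which is 16.7% against 11.3% of all tested genes. For Foxa1 and Il6st the groups did not overlap, which is 11.1% against 7.16% of all tested genes. Il6ra, the other chain of the receptor, was higher, at 0.44 (SE 0.21, limma adjusted p = 0.457).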

How the data were processed

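Liver RNA (400 ng a sample, per the labels' protocols) was measured on GeneChip whole-transcript arrays. The deposited table holds log2 values per probe set and array; the submitters' processing notes name RMA and limma, without versions, and RMA makes array distributions nearly equal. The sources used here do not name a genome build. Of 41345 probe sets, 23521 carry exactly 1 gene symbol, 1814 several, and 16010 are not listed with a gene. Symbols were checked by Entrez identifier (23328 matched, 0 changed). The brightest probe set stood for each of the 22180 genes; none of the 46 members measured had a second one. Testing required that 4 or more of the 8 arrays exceeded the dim limit, set on every array at the 40th percentile over probe sets with 1 symbol. Detection calls were not used; 4 arrays a group bound the precision.

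The genotypes were tested in R 4.3.3 with limma 3.58.1, using lmFit and eBayes without covariates. Two-sided p-values were adjusted by Benjamini-Hochberg over all tested genes (threshold 0.05), and the script was tested on simulated data. Each difference is on the log2 scale, positive where the knock-in was higher, with its model SE. Tm6sf2 had an exact permutation test, whose smallest possible p is 0.0286. All members are given; array values were printed for those with unadjusted p under 0.05 and the pair per role group with the largest difference, and, after values were seen, for C1qb, C1qc, Masp1, C8a, C8g, C9 and Fgb. The 5 lists of other pathway genes give up to 3 genes with the smallest p. From these lists C7, Hc, C1s1, F13a1, Il6ra, Orm3 and Hamp were added after values were seen. The members and lists were chosen with earlier results of these data known. Alternatives were a further quantile normalization, no filter, a stricter filter (all 8 arrays), a trended and robust prior, the replicate block, the mean of probe sets and leaving out each array. Same-numbered arrays did not all deviate together, with correlations of their deviations from group means of -0.11 to 0.10.

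The 11 marker lists, as tested members higher and lower in the knock-in, gave 6 and 2 for hepatocytes, 6 and 4 for Kupffer cells, 6 and 4 for monocytes, macrophages and dendritic cells, 1 and 3 for neutrophils, 5 and 5 for sinusoidal endothelium, 5 and 5 for stellate cells, 3 and 2 for cholangiocytes, 4 and 4 for T and NK cells, 4 and 3 for B and plasma cells, 3 and 1 for platelets and 0 and 1 for erythroid cells, with 0 members past the adjusted threshold.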

Additional observations from a re-analysis of the deposited data

Results flagged for a closer look

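Of 92 sets of 4 arrays examined (46 genes in 2 genotypes), 8 had an array far from the other 3, with a gap to the nearest array beyond Dixon's 95% limit as a share of the whole range; chance gives about 1 in 20. The gaps below are shares of that range. In the knock-in, replicate 1 was low for C1qc (6.90, gap 0.921), F10 (10.72, gap 0.903) and Alb (13.57, gap 0.866). Replicate 4 was high for C5ar1 (4.06, gap 0.848) and Masp1 (10.61, gap 0.842), and replicate 2 was low for C1ra (6.56, gap 0.871). In wild type, replicate 3 was low for Cfi (12.12, gap 0.888) and replicate 2 high for Itih3 (11.33, gap 0.857). For Alb and Cfi the whole range was 0.082 and 0.11 on the log2 scale.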

How the results depend on the processing

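Across 14 alternatives, 0 of the 46 members passed the adjusted threshold under any, and the lowest adjusted p was 0.210. With 1 array left out, the median difference of the members ran from 0.0059 to 0.058, and 25 to 35 members were higher. Leaving out 1 array moved the difference by over 1.5 times in 37 members, 8 of them among the 14 with a difference of 0.1 or more. Over the whole array 9 genes were called, against 2 with no filter, 27 with the stricter filter, 73 with the trended and robust prior, 24 with the mean of probe sets and 1 to 12 with 1 array left out. With the replicate block 2 were called, of which 1 was among the 9; the numbers do not pair the arrays, and the block changed no call among the members. A further quantile normalization turned C1qb to -0.0040, Serping1 to -0.0017 and Itih4 to -0.0029. Leaving out 1 array turned the sign in 19 members, whose lowest and highest differences were -0.038 and 0.22 for C1qa, -0.055 and 0.12 for C1qb, -0.13 and 0.15 for C1qc, -0.028 and 0.094 for C1ra, -0.18 and 0.0066 for Cfp, -0.17 and 0.11 for C8a, -0.28 and 0.064 for C9, -0.020 and 0.041 for Serping1, -0.048 and 0.0031 for F5, -0.0072 and 0.11 for F9, -0.049 and 0.071 for F13b, -0.0077 and 0.054 for Fgg, -0.0035 and 0.010 for Serpinc1, -0.052 and 0.0098 for Serpinf2, -0.018 and 0.054 for Hp, -0.10 and 0.022 for Cp, -0.078 and 0.11 for Itih3, -0.00019 and 0.024 for Ahsg and -0.00067 and 0.034 for Ttr. The cause was not tested.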

Other observations

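Because C6, C8a, C8b and C9 split the knock-in arrays, genes with a known sex bias in mouse liver were set beside them, although all mice are labelled male. The list was chosen after values of these arrays were seen and has no test. All 12 male-biased genes had their highest knock-in value in replicate 4, as C6, C8a, C8b and C9 did. Of all tested genes, 27.0% had their highest knock-in value there. Cyp7b1, the oxysterol hydroxylase, read 10.01, 9.99, 10.66 and 11.74 in knock-in replicates 1 to 4, and 10.40, 11.16, 10.81 and 11.24 in wild type. Serpina1e, an antitrypsin copy, read 9.45, 9.79, 10.59 and 11.17 against 10.30, 10.99, 10.75 and 11.17 in wild type. Egfr, the receptor of epidermal growth factor, read 10.25, 10.74, 11.05 and 11.56 against 10.53, 11.08, 11.004 and 11.18. Selenbp2 read 7.0, 7.77, 8.33 and 10.03 against 6.96, 9.09, 8.42 and 9.20. In wild type, replicate 1 was the lowest array for each of these genes, but not for Slco1a1 and Ugt2b1 of the same list. Wild type replicate 1 was also the lowest wild type array for C6, C8a and C8b, and replicate 4 the highest. C9 was lowest in replicate 3 and highest in replicate 2 of the wild type.

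Of 5 female-biased genes above the dim limit, 4 had their lowest knock-in value in replicate 4, against 26.1% of all tested genes. Cyp2b9 read 8.83, 9.58, 8.82 and 3.29 in knock-in replicates 1 to 4 and 8.17, 3.28, 3.85 and 3.36 in wild type, so it lay near the dim limit in 3 wild type arrays and 1 knock-in array. Cyp2a4 read 8.58, 8.85, 9.11 and 7.52 against 7.23, 5.05, 4.83 and 6.15. The difference was 2.96 (SE 1.53, limma adjusted p = 0.511) for Cyp2b9 and 2.70 (SE 0.54, limma adjusted p = 0.119) for Cyp2a4. A1bg was lower, at -1.02 (SE 0.41, limma adjusted p = 0.381), and Cyp17a1 and Cux2 were at -0.041 (SE 0.22) and 0.083 (SE 0.39). The part of sex-biased expression in the members' spread was not tested.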
